A study of Homo sapiens with 21 samples.

Results

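ZR-75-1 cells given 250 nM THZ1 were compared with ZR-75-1 cells given 50 nM THZ1, on 2 arrays per dose chosen by their titles, which are 4 of the 21 arrays of the series. This dose step was picked because it was the steepest in the series in lowered genes, so its size against other steps is a description that the choice fixed. ZR-75-1 is an established human breast cancer line that the labels class as oestrogen receptor positive (ER+). THZ1 is a covalent inhibitor of the kinase CDK7. RNA was measured on Affymetrix PrimeView arrays in 4 breast cancer lines, and the series was built around the dependence of triple-negative breast cancer on CDK7.

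Both ZR-75-1 groups had 6 hours of drug, and a further pair of ZR-75-1 arrays came from cells given the solvent DMSO for the same time. All cells grew in RPMI-1640 with serum and antibiotics. MDA-MB-468, a triple-negative line, and T47D, another ER+ line, have the same 3 groups with 2 arrays each, and BT-549, a triple-negative line, has 1 array per dose and no test. The labels number the replicate arrays but do not say that they came from separate cultures, and the p-values therefore describe array-to-array spread, which may be technical.

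CDK7 is part of TFIIH, a general transcription factor. It phosphorylates the tail of RNA polymerase II when transcription starts, and it activates other cyclin-dependent kinases, among them those of the cell cycle. Messages that are made and degraded quickly lose abundance soonest when transcription slows, whereas long-lived messages persist. An array loaded with a set mass of RNA reads each message as a part of the total that was loaded, not as copies per cell.

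One label, the source name, calls these ZR-75-1 arrays MDA-MB-468, against their titles and their cell line field. The marker levels went with the titles: 10 of 10 luminal markers lay above background on all 6 ZR-75-1 arrays, and ESR1, the oestrogen receptor, read 442 ± 9.32 (SD, n = 2) in DMSO-treated ZR-75-1 against 30.9 ± 2.48 in DMSO-treated MDA-MB-468. Of 4 immune markers PTPRC and LYZ were never above background on these arrays, while CD3E and CD68 were on all 6, as were 4 of 7 basal or mesenchymal and 4 of 5 stromal or endothelial markers. The mesenchymal marker FN1 was the highest of these, at 1301 and 1082 at 50 nM and 1426 and 1121 at 250 nM. The median log2 intensity of the immune, fat cell, stromal and basal markers lay between 4.42 and 5.79 on each ZR-75-1 array, and in each class the 50 and 250 nM arrays overlapped, whereas that of the luminal markers went from 12.56 and 12.65 to 11.14 and 11.15. The mean intensity of an array lay between 326 and 343 over all 21 arrays, so arrays were brought to nearly the same mean. The 75th percentile did not follow. It was 204 ± 4.67 in DMSO, 202 ± 4.01 at 50 nM and 143 ± 3.81 at 250 nM in ZR-75-1 (SD, n = 2), the lowest in the series. The ratio of 3′ to 5′ signal, a sign of RNA quality, was higher at 250 nM. For ACTB it was 1.83 and 1.64 in DMSO, 1.68 and 1.77 at 50 nM and 1.92 and 1.87 at 250 nM. For GAPDH it was 1.05 and 1.06 in DMSO, 1.04 and 1.06 at 50 nM and 1.15 and 1.11 at 250 nM. Both 250 nM arrays were the highest of the 6 ZR-75-1 arrays on both ratios, and the part of this in the results was not tested. Replicate arrays differed 2-fold or more for 15 genes at 50 nM and 8 genes at 250 nM out of 12644 tested.

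From 50 to 250 nM, 5277 of the 12644 genes tested fell (41.7%) and 839 rose (6.64%), by limma's moderated test at a Benjamini-Hochberg adjusted p under 0.05, the rule behind every "called", "fell" and "rose" used here. The drops were large and the rises small: 2049 genes fell at least 2-fold (16.2%), 342 at least 4-fold and 17 at least 8-fold, whereas 3 rose at least 2-fold (0.0237%). The last count was 7 without replicate 1 and 11 without replicate 2 of 50 nM, and 5 without replicate 1 and 9 without replicate 2 of 250 nM. The median change was -0.17 on the log2 scale, with quartiles at -0.68 and 0.06. The first dose step, from DMSO to 50 nM, shares the 50 nM arrays. It called 718 genes lower (5.68%) and 353 higher (2.79%), with 25 lower (0.198%) and 7 higher (0.0554%) by at least 2-fold.

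The lowered genes lay in the middle of the intensity range and the raised genes at its top. In the quartile of genes with the lowest signal at 50 nM, 467 of 3161 fell, against 1501, 2010 and 1299 in the quartiles above it. Of the 839 genes that rose, 570 were in the top quartile. Low signals lie close to background and compress any drop, so the quartiles are a description of what the array could show.

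**Figure D1:**
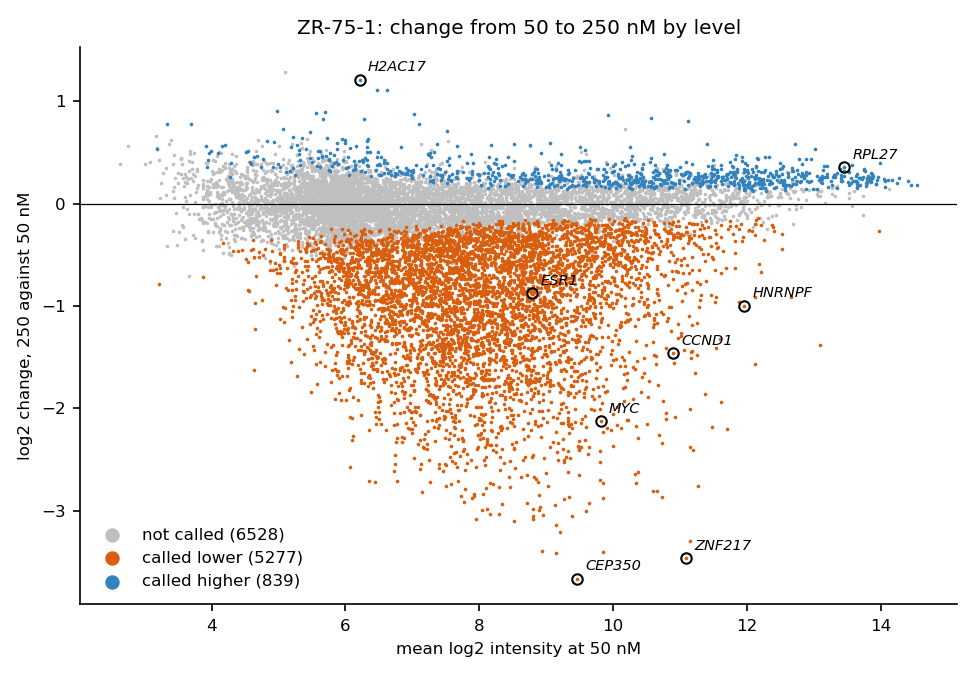
Log2 change from 50 to 250 nM THZ1 in ZR-75-1 (y axis, values as deposited) against the mean log2 intensity of the 2 arrays at 50 nM (x axis), 1 point per gene, coloured by limma call. The 5277 lowered genes form the cloud below 0 that reaches -3.66 at CEP350, and the 839 raised genes form a thin band above 0, mostly at high intensity.

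How many genes counted as raised depended on how arrays were set against each other. Centring each array on its own median gave 3377 lower and 4774 higher genes, so 41.4% of calls were lower in place of 86.3%, and quantile normalization gave 3654 and 3753. These settings moved the median change of all genes from -0.17 to 0.18 and 0.07. The 7 probe sets of the control transcripts lys, TagJ and TagO, which are added to the RNA and do not come from the cells, read a mean log2 intensity of 11.32 and 11.47 at 50 nM and 12.27 and 12.15 at 250 nM. Both 250 nM arrays were above both 50 nM arrays and both DMSO arrays, at 11.50 and 11.48. The rise of 0.81 compared with 0.38 in MDA-MB-468 and 0.35 in T47D, while the hybridization controls moved by 0.16 in ZR-75-1. Scaling to lys, TagJ and TagO gave 12472 lower genes, 1 higher gene and a median change of -0.98. Whether those transcripts were added by cell number, as the spike-in mix of the labels was, is not given in these sources, and every statement below that a gene or list rose from 50 to 250 nM in ZR-75-1 is on the deposited scale. With this scaling the 1 gene that rose was H2AC17, by 0.40 (limma adjusted p = 0.0105).

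The gene with the deepest drop was CEP350, which encodes a large centrosomal protein. It read 678 and 654 in DMSO, 734 and 680.1 at 50 nM and 56.7 and 54.9 at 250 nM. The 4 arrays without the high dose lay together, and both 250 nM arrays lay more than 10-fold under them. The change was -3.66 ± 0.08 on the log2 scale (SE, n = 2 per dose, limma adjusted p = 8.45e-14), a drop by a factor of 12.7, and 4 of its 5 other probe sets were also called lower.

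ZNF217, a zinc finger transcriptional regulator that is amplified in some breast cancers, went from 2242 and 2118 to 219 and 179 (a change of -3.46 ± 0.12, limma adjusted p = 3.28e-12). PTGER4, the prostaglandin E2 receptor EP4, went from 572 and 556 to 52.5 and 53.2 (a change of -3.42 ± 0.10, adjusted p = 4.95e-13), though its other probe set was not called. As here, each change below is on the log2 scale with its SE and n = 2 per dose. PPP1R15B, which brings protein phosphatase 1 to the translation factor eIF2-alpha, went from 1042 and 809 to 84.4 and 89.5 (a change of -3.40 ± 0.11, adjusted p = 1.31e-12). In all of these the 250 nM arrays lay far under both 50 nM arrays, and the 50 nM arrays stayed near the DMSO arrays, which read 2229 and 2047 for ZNF217, 652 and 661 for PTGER4 and 1137 and 1076 for PPP1R15B.

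The remaining 6 of the 10 deepest drops were log2 changes between -3.40 and -3.08. They were PDIK1L, a kinase (475 and 501 to 39.4 and 54.5), PARD6B, a cell polarity protein (2368 and 2151 to 248 and 214), and TRIB1, a pseudokinase (599 and 577 to 69.8 and 58.0), whose other probe set was not called. DKK1, a secreted WNT antagonist, went from 563 and 564 to 67.0 and 61.5, ZBED5 from 380.0 and 352 to 48.0 and 37.8, and MARS2, the mitochondrial methionyl-tRNA synthetase, from 481 and 417 to 68.1 and 40.9. In each of them both 250 nM arrays lay under both 50 nM arrays. DKK1 and ZBED5 had already fallen at 50 nM against DMSO, with changes of -0.54 ± 0.14 (limma adjusted p = 0.0271) and -0.55 ± 0.10 (adjusted p = 0.00269), whereas the other 8 of the 10 were not called at that step.

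**Figure D2:**
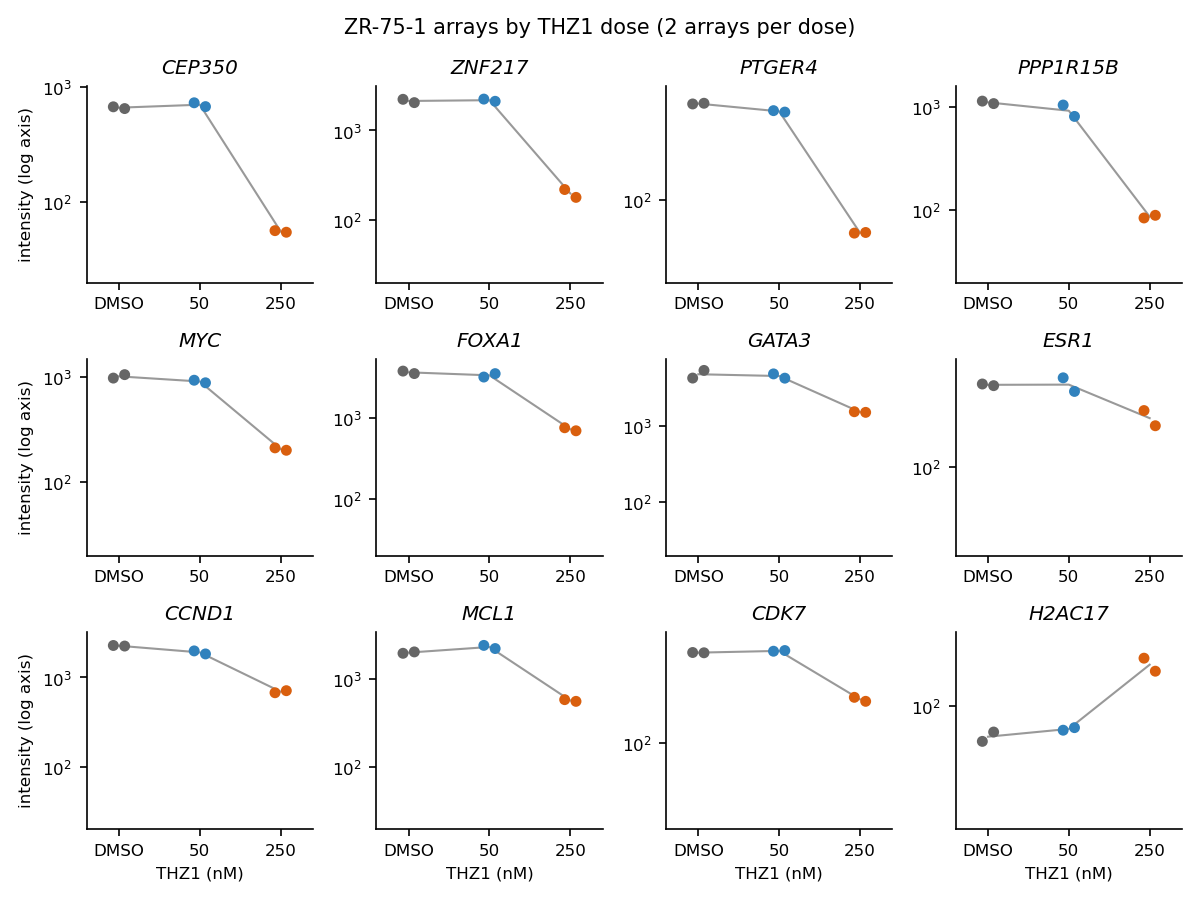
Intensity of 12 genes in ZR-75-1 (log y axis, 1 point per array) with DMSO, 50 nM and 250 nM THZ1 on the x axis, and lines through the geometric mean of the 2 arrays. In 11 genes both 250 nM arrays lie under both 50 nM arrays, by 12.7-fold for CEP350 and 1.83-fold for ESR1, and in H2AC17 they lie above.

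The promoters of 3 of the most lowered genes and of the most raised gene are shown because they differ in the short motifs that core promoters carry. Each run is the 250 bases before the start site, 5′ to 3′ on the gene's strand, from RefSeq on GRCh38.p14, with matches in capitals on either strand to TATAAA (the TATA box core), CCAAT (bound by NF-Y) or CCGGAAG (an ETS factor core).
CEP350, chr1:179954560-179954809, plus strand: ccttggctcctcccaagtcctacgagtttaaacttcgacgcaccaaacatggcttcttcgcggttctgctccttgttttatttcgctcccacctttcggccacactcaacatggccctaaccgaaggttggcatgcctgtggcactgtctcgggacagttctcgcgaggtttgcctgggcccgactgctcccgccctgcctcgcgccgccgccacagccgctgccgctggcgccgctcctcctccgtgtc
PTGER4, chr5:40679665-40679914, plus strand: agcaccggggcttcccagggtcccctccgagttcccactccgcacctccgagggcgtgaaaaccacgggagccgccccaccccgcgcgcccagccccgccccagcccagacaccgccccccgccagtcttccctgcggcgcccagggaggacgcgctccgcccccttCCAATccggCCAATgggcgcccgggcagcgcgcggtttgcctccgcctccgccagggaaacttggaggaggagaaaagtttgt
PPP1R15B, chr1:204411818-204412067, minus strand: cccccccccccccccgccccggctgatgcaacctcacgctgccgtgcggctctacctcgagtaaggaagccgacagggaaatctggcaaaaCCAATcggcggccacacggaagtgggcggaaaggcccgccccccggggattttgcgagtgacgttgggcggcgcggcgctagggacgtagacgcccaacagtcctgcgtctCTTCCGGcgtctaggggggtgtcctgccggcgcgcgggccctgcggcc
H2AC17, chr6:27893186-27893435, minus strand: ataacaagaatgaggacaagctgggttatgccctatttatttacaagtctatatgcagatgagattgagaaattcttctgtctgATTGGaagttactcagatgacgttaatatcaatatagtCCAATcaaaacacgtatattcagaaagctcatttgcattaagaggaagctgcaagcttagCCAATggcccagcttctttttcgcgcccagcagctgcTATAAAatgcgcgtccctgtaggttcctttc

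The CEP350 window held none of the motifs and had a GC content of 62.4%. PTGER4 held 2 matches to CCAAT, which begin 83 and 74 bases before the start site, and PPP1R15B held 1 match to CCAAT and 1 to CCGGAAG. H2AC17 had a GC content of 40.4%, a TATAAA that begins 31 bases before the start site and 3 matches to CCAAT. Over genes tested, a promoter was on hand for 10319 of 12644 (81.6%). CCAAT stood in 35.1% of those, in 37.8% of promoters of genes that fell at least 2-fold, in 42.6% of those of genes that fell at least 4-fold and in 36.5% of those of genes that rose. CCGGAAG stood in 15.1%, 18.6%, 20.2% and 20.3% of the same classes, and TATAAA in 5.91%, 5.43%, 7.45% and 6.11%. Among all 27305 promoters of that length the shares were 33.0% for CCAAT, 8.82% for CCGGAAG and 11.1% for TATAAA. A match is a description of letters in this window, and these shares carry no test.

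Raised genes had a shorter median length than lowered ones, by RefSeq coordinates. The median length was 28.5 kb over all genes tested, 34.1 kb over genes that fell, 30.6 kb over those that fell at least 2-fold, 20.3 kb over those that fell at least 4-fold and 13.6 kb over genes that rose. In the shortest quartile of genes, up to 11.2 kb, 32.5% fell and 11.6% rose. In the longest quartile, from 70.5 kb, 46.3% fell and 2.94% rose. These medians and shares are descriptions without a test.

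The 6 most raised genes in the deposited values gained at most 1.21 on the log2 scale. H2AC17, a replication-dependent histone H2A gene, read 72.8 and 75.3 at 50 nM and 187 and 158 at 250 nM, so the 250 nM arrays lay above both (a change of 1.21 ± 0.13, limma adjusted p = 6.02e-07). H2BC8, a histone H2B gene, went from 91.3 and 106 to 210.5 and 215 (a change of 1.11 ± 0.13, adjusted p = 1.59e-06), and H2BC15 from 47.4 and 57.1 to 90.8 and 103 (0.90 ± 0.15, adjusted p = 9.74e-05). Of the 30 replication-dependent histone genes tested 9 rose and 0 fell (6.64% of all genes rose and 41.7% fell), with a median of 0.24, a direction that flipped to -0.57 with scaling to lys, TagJ and TagO, and without replicate 2 of 50 nM 5 rose. These genes are close copies of each other, their messages usually lack a poly(A) tail and the labelled RNA was primed with oligo(dT), and the part of these in their values was not tested.

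The others were not histone genes. TNNC2, a troponin C of skeletal muscle, went from 88.8 and 89.1 to 202 and 184 (a change of 1.12 ± 0.18, limma adjusted p = 5.34e-05), but none of its 3 other probe sets was called. GLYAT, a glycine acyltransferase, went from 34.9 and 28.6 to 52.0 and 67.6 (0.91 ± 0.16, adjusted p = 0.000157), with none of its 3 other probe sets called, and SNORA65, a small nucleolar RNA, from 48.8 and 45.7 to 93.2 and 81.5 (0.88 ± 0.16, adjusted p = 0.000234). With scaling to lys, TagJ and TagO none of TNNC2, GLYAT, SNORA65, H2BC8 and H2BC15 was called.

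Among the genes of the target's own machinery, 14 of 21 TFIIH and transcription kinase genes fell (66.7%, against 41.7% of all genes) and 1 rose, with a median of -0.66. CDK7 itself read 534 and 531 in DMSO, 547 and 554 at 50 nM and 232 and 215 at 250 nM, with the DMSO and 50 nM arrays together and the 250 nM arrays under them. The log2 change was -1.30 ± 0.07 (limma adjusted p = 3.91e-10). CDK8, the kinase of the Mediator complex, went from 510.3 and 518 to 226 and 207 (a change of -1.25 ± 0.08, adjusted p = 2.63e-09).

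HEXIM1, an inhibitor of the elongation kinase P-TEFb, did not move one way. It read 821 and 727 in DMSO, 1287 and 1086 at 50 nM and 278 and 268 at 250 nM, so the 50 nM arrays were the highest and the 250 nM arrays the lowest. Against DMSO it rose by 0.61 ± 0.10 at 50 nM (limma adjusted p = 0.00181), and the step to 250 nM was a change of -2.11 ± 0.10 (adjusted p = 9.11e-11). WDR33, a subunit of the complex that recognises the polyadenylation signal, had the same shape, with 208 and 233 in DMSO, 519 and 511 at 50 nM and 190.3 and 177 at 250 nM. It rose by 1.22 ± 0.07 (adjusted p = 8.5e-08) and then had a change of -1.49 ± 0.07 (adjusted p = 6.18e-11). Since both steps use the 50 nM arrays, an error on those arrays would move the steps in opposite directions.

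Mediator, which joins transcription factors to polymerase II, fell in 20 of 27 subunit genes (74.1%, against 41.7% of all genes) and rose in 0, with a median of -0.90. MED13 of its kinase module went from 1754 and 1797 to 463 and 402 (a change of -2.04 ± 0.09, limma adjusted p = 4.05e-11), MED17 of its head from 357 and 350.5 to 90.4 and 85.4 (-2.01 ± 0.07, adjusted p = 4.16e-12), and MED26 from 804 and 711 to 208 and 199.5 (-1.89 ± 0.09, adjusted p = 3.32e-11). In each the doses did not overlap. TFIID and initiation factor genes fell in 13 of 19 (68.4%, against 41.7%) and rose in 1 (median -0.48). Their leading members were GTF2E1 of TFIIE (605 and 547 to 94.2 and 108), and TAF4 (492 and 452 to 106 and 102) and TAF5 (148 and 148 to 33.1 and 23.9) of TFIID. TAF5 lay above background on 1 of 2 arrays at 250 nM.

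RNA polymerase II itself split, with 33.3% of its subunit genes lower and 33.3% higher, against 41.7% and 6.64% of all genes. Of its 12 subunit genes 4 fell and 4 rose, with a median of 0.10 that flipped to -0.71 with scaling to lys, TagJ and TagO, and 2 rose without any 1 of 50 nM replicate 2 and the replicates of 250 nM. POLR2D went from 668 and 684 to 189.5 and 205 (a change of -1.78 ± 0.06, limma adjusted p = 4.42e-12) and POLR2H from 848 and 841 to 701 and 695 (-0.27 ± 0.05, adjusted p = 9.31e-05), a direction that flipped to 0.08 with arrays centred on their median. The catalytic subunit POLR2A had the shape of HEXIM1, with 284 and 339 in DMSO, 503 and 437 at 50 nM and 338 and 309 at 250 nM. The 250 nM arrays came back among the DMSO values, the step was a change of -0.54 ± 0.09 (adjusted p = 0.000103), and neither of its 2 other probe sets was called.

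RNA processing genes were mixed. Integrator and 3′ end genes fell in 18 of 30 (60.0%, against 41.7% of all genes) and rose in 0, with a median of -0.33 that turned to 0.02 with centred arrays and 0.01 with quantile normalization. CLP1, a cleavage factor, went from 357 and 355 to 114 and 93.1 (a change of -1.79 ± 0.09, limma adjusted p = 1.41e-10) and INTS12 of Integrator from 419.8 and 412 to 132 and 145 (-1.59 ± 0.08, adjusted p = 1.64e-10). SR protein, hnRNP and CLK genes, which act in splicing, fell in 15 of 28 (53.6%, against 41.7% of all genes) and rose in 6 (21.4%, against 6.64%). Their median of -0.26 turned to 0.09 with centred arrays. Without 50 nM replicate 2, or without 250 nM replicate 1, 2 rose. SRSF4 went from 664 and 654 to 237 and 223 (-1.52 ± 0.07, adjusted p = 2.21e-11), CLK2 from 772 and 717 to 346 and 333 (-1.13 ± 0.08, adjusted p = 2.78e-09) and HNRNPF from 4028 and 3923 to 2036 and 1953 (-0.995 ± 0.06, adjusted p = 5.45e-10).

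The genes that mark ZR-75-1 as a luminal line moved in both directions. Luminal and oestrogen receptor genes fell in 16 of 24 (66.7%, against 41.7% of all genes) and rose in 6 (25%, against 6.64%), with a median of -0.73. Those that rose numbered 3 without either replicate of 50 nM and 0 without replicate 2 of 250 nM. Of the 10 luminal markers FOXA1, GATA3, ESR1, XBP1 and SPDEF fell, and KRT8, KRT18, KRT19, TFF1 and AGR2 rose by 0.16 to 0.19, rises that did not hold with scaling to lys, TagJ and TagO.

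FOXA1, a pioneer factor for the oestrogen receptor, read 3759 and 3505 in DMSO, 3176 and 3498 at 50 nM and 755 and 693 at 250 nM. It had a change of -2.20 ± 0.08 (limma adjusted p = 4.42e-12), and only the 250 nM arrays stood apart. GATA3, a luminal transcription factor, went from 4763 and 4188 to 1527 and 1498 with no overlap (a change of -1.56 ± 0.09, adjusted p = 3.18e-10). The replicates of ESR1 lay further apart, with 501 and 392 at 50 nM and 277 and 211 at 250 nM. Its 250 nM arrays still lay under both 50 nM arrays (a change of -0.88 ± 0.15, adjusted p = 0.000103), but none of its 4 other probe sets was called.

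The deepest drops of the luminal list were in the insulin receptor substrate IRS1 (587 and 651 to 88.4 and 79.6, a change of -2.88 ± 0.09, limma adjusted p = 1.5e-12) and in the AP-2 factors TFAP2A (296 and 295 to 44.6 and 44.1, -2.74 ± 0.09) and TFAP2C (2384 and 2149 to 483 and 393, -2.38 ± 0.09). For TFAP2A 1 of its 6 other probe sets was called lower. The basal and mesenchymal list had 1 of 9 genes lower (11.1%, against 41.7% of all genes) and 0 higher (against 6.64%). That gene was EGFR, at 48.1 and 50.0 and then 31.7 and 31.3, with 1 of 2 arrays above background at 250 nM and 1 of its 7 other probe sets called the opposite way. VIM and CDH2 read 63.4 and 50.0 at 50 nM in ZR-75-1, against 14290 and 2758 in BT-549, so they had little room to fall. FN1, at 1301 and 1082 at 50 nM, had room and was not called. No immune or stromal marker of 9 was called, where 41.7% of all genes fell and 6.64% rose. The filter kept genes on their highest group mean over all lines. COL1A2 and CD14 were above background on 0 ZR-75-1 arrays at either dose, and a gene without signal cannot fall. The share of all genes is therefore no measure of what this list could show.

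Regulatory genes outside the luminal group fell broadly. Forkhead, SOX and KLF factors fell in 14 of 19 (73.7%, against 41.7% of all genes) and rose in 0 (median -1.03). FOXJ3 went from 586 and 566 to 237 and 234, FOXO3 from 351.2 and 353.5 to 167 and 145 and KLF11 from 176 and 174 to 61.3 and 58.4, changes of -1.29, -1.18 and -1.55, and neither of the 2 other probe sets of KLF11 was called. SOX9, a progenitor-linked factor, went from 119.5 and 114 to 56.7 and 57.3 (a change of -1.03 ± 0.08, limma adjusted p = 8.54e-09). The doses of all these genes were apart.

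**Figure D3:**
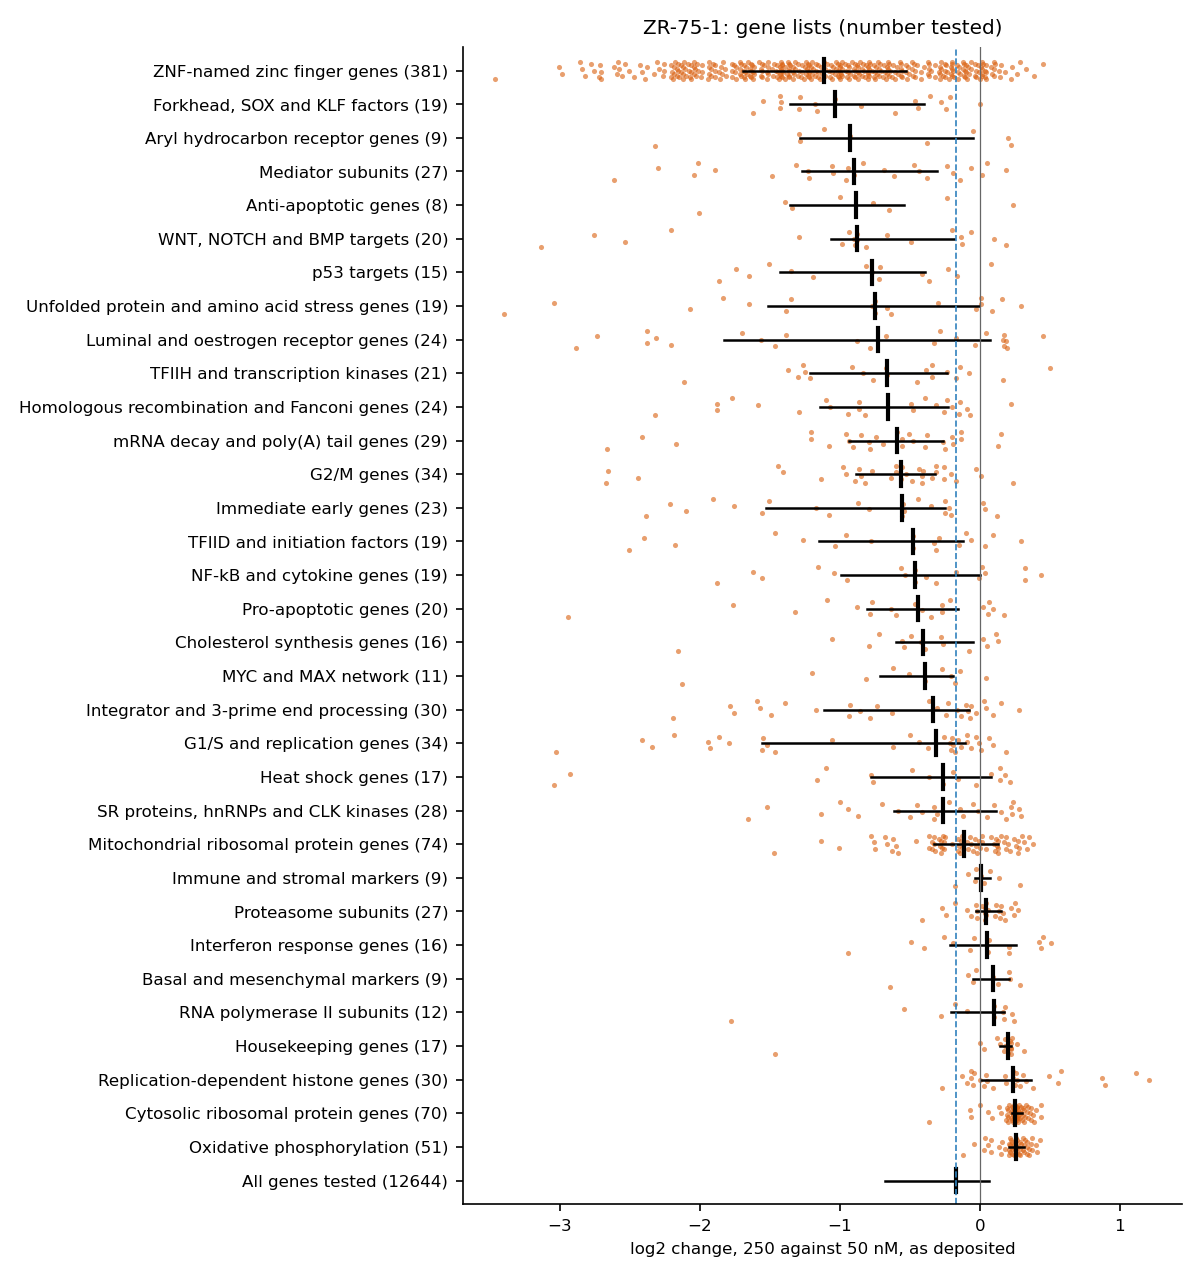
Log2 change from 50 to 250 nM in ZR-75-1 as deposited (x axis) for the tested members of each gene list (orange points, number tested in brackets), with the median (thick tick) and quartiles (horizontal line), and all 12644 genes in the bottom row. The blue dashed line is the median of all genes, -0.17, ZNF-named genes lie lowest (median -1.12), and oxidative phosphorylation and ribosomal protein genes lie highest (0.26 and 0.25), medians that turned to -0.56 with scaling to lys, TagJ and TagO.

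MYC, which drives growth genes and has a short-lived message, read 968 and 1044 in DMSO, 924 and 874 at 50 nM and 211 and 200.4 at 250 nM. The first 4 arrays lay close together and the 250 nM arrays far under them, a change of -2.13 ± 0.08 (limma adjusted p = 8.39e-12). The MYC and MAX network fell in 8 of 11 genes (72.7%, against 41.7% of all genes) and rose in 0 (median -0.39). With centred arrays 4 were lower and 1 higher (median -0.04), and with quantile normalization 3 and 3 (median -0.01). MAX, the partner of MYC, went from 619 and 583 to 264 and 258 (a change of -1.200 ± 0.06, adjusted p = 1.44e-10) and MGA, a MAX-binding repressor, from 199.6 and 208 to 139 and 127 (-0.62 ± 0.09, adjusted p = 3.45e-05).

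Immediate early genes, whose messages turn over fast, fell in 16 of 23 (69.6%, against 41.7% of all genes) and rose in 0 (median -0.56). DUSP4 and DUSP5, phosphatases that switch off MAP kinases, went from 1032 and 975 to 209 and 224 and from 195 and 201 to 47.1 and 45.7, and IER5 went from 701 and 657 to 235 and 227. Those were changes of -2.21 ± 0.07, -2.10 ± 0.12 and -1.55 ± 0.09. Targets and regulators of WNT, NOTCH and BMP signalling fell in 15 of 20 (75%) and rose in 0 (median -0.88). Beside DKK1, BAMBI, a decoy receptor, went from 2446 and 2493 to 405 and 329.5 (-2.76 ± 0.09, limma adjusted p = 1.39e-12) and TCF7L2, a WNT effector, from 319 and 342 to 65.4 and 49.6 (-2.54 ± 0.12, adjusted p = 4.73e-11), with 1 of the 6 other probe sets of TCF7L2 called lower.

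G2/M genes fell in 31 of 34 (91.2%, against 41.7% of all genes) and rose in 1 (median -0.56), and 6 fell at least 2-fold. With centred arrays 14 were lower and 4 higher, and with quantile normalization 20 and 1. WEE1, the kinase that holds back mitosis, went from 489.5 and 416 to 75.3 and 66.7 (a change of -2.67 ± 0.10, limma adjusted p = 4.42e-12). CENPA, the centromeric histone, went from 728 and 702 to 101 and 128 (-2.65 ± 0.11, adjusted p = 1.05e-11), and AURKA, a mitotic kinase, from 1812 and 1713 to 654 and 676 (-1.41 ± 0.06, adjusted p = 1.13e-11).

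G1/S and replication genes fell in 22 of 34 (64.7%, against 41.7% of all genes), 13 of them at least 2-fold, and rose in 1, with a median of -0.31 that turned to 0.04 with centred arrays (14 lower and 9 higher). CCND1, cyclin D1, read 2282 and 2249 in DMSO, 1984 and 1835 at 50 nM and 674 and 711 at 250 nM, a change of -1.46 ± 0.06 (limma adjusted p = 8.65e-12). CDC25A, a phosphatase that activates cyclin-dependent kinases, went from 363 and 355 to 72.8 and 68.9 (-2.34 ± 0.07, adjusted p = 7.71e-13) and E2F3 from 681 and 599 to 128 and 112 (-2.41 ± 0.09, adjusted p = 7.54e-12). Homologous recombination and Fanconi genes fell in 17 of 24 (70.8%) and rose in 0 (median -0.65), led by PALB2 (227 and 204 to 36.5 and 51.0), EXO1 (265 and 262 to 71.1 and 72.3) and FANCF (278 and 251 to 73.9 and 69.8). In this list 8 members had also fallen from DMSO to 50 nM, where 5.68% of all genes did.

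Genes on both sides of cell death fell. Anti-apoptotic genes fell in 6 of 8 (75%, against 41.7% of all genes) and rose in 0 (median -0.88). MCL1, a short-lived survival protein of the BCL2 family, read 1928 and 1999 in DMSO, 2368 and 2182 at 50 nM and 578 and 553 at 250 nM, with the 250 nM arrays far under the other 4 (a change of -2.01 ± 0.09, limma adjusted p = 2.41e-11). BIRC2 went from 716 and 719.8 to 297 and 269.8 (-1.34 ± 0.06, adjusted p = 6.02e-11), and BCL2L2 from 370.5 and 362 to 215 and 217 (-0.76 ± 0.07, adjusted p = 6.4e-08). The BCL2L2 value rests on 1 probe set, since neither of its 2 others was called and the mean over probe sets gave 0.01.

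Pro-apoptotic genes fell in 12 of 20 (60.0%, against 41.7% of all genes) and rose in 0 (median -0.44). With centred arrays 9 were lower and 5 higher (median -0.09), and with quantile normalization 8 and 5 (median -0.07). FADD, an adaptor of death receptors, went from 565 and 559.5 to 75.5 and 70.8 (a change of -2.94 ± 0.09, limma adjusted p = 1.5e-12). Of its 2 other probe sets 1 was called lower. The death receptor TNFRSF10B went from 542 and 521 to 159 and 154 (-1.76 ± 0.07, adjusted p = 7.17e-12). BCL2L11, which encodes BIM, went from 213 and 198 to 74.1 and 91.7 (-1.32 ± 0.11, adjusted p = 2.42e-08), but of its 13 other probe sets 2 were called lower and 3 higher. Targets of p53 fell in 12 of 15 (80.0%) and rose in 0 (median -0.77), among them MDM2 (328 and 309 to 92.2 and 82.8), AEN (345 and 329 to 108 and 94.2) and SESN2 (250.3 and 247 to 93.5 and 102).

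The genes that set message lifetime were lowered too. Those of mRNA decay and the poly(A) tail fell in 22 of 29 (75.9%, against 41.7% of all genes) and rose in 0 (median -0.59). ZFP36L2 and ZFP36L1, which bind AU-rich elements and speed decay, went from 1328 and 1263 to 303 and 274 (a change of -2.17 ± 0.07, limma adjusted p = 2.27e-12) and from 1541 and 1559 to 702 and 641 (-1.21 ± 0.06, adjusted p = 5.24e-11). None of the 5 other probe sets of ZFP36L1 was called in the same direction. CNOT4 went from 349.7 and 347 to 63.3 and 47.7 (-2.67 ± 0.12, adjusted p = 3.43e-11), with 1 of its 6 other probe sets called lower.

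Unfolded protein and amino acid stress genes fell in 13 of 19 (68.4%, against 41.7% of all genes) and rose in 1 (median -0.75). DNAJB9, a chaperone of the endoplasmic reticulum, went from 453 and 536 to 59.3 and 60.3 (a change of -3.04 ± 0.09, limma adjusted p = 1.03e-12). Of its 2 other probe sets 1 was called lower. TRIB3 went from 523 and 517 to 175 and 158 (-1.65 ± 0.07, adjusted p = 2.19e-11). Heat shock genes fell in 10 of 17 (58.8%) and rose in 2, with a median of -0.26 that turned to 0.09 with centred arrays, where 6 were lower and 6 higher. DNAJB1 went from 768 and 826 to 99.2 and 111 (-2.92 ± 0.12, adjusted p = 8.72e-12) and BAG3 from 1450 and 1377 to 642 and 677 (-1.10 ± 0.06, adjusted p = 3.14e-10).

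Cholesterol synthesis genes fell in 10 of 16 (62.5%, against 41.7% of all genes) and rose in 0 (median -0.41). With centred arrays 5 were lower and 5 higher (median -0.05), and with quantile normalization 5 and 4. INSIG1, the sterol sensor partner, read 1216 and 935 at 50 nM and 285 and 199.7 at 250 nM, with a wide spread at both doses but no overlap (a change of -2.16 ± 0.15, limma adjusted p = 5.14e-09). The enzymes SQLE (1705 and 1661 to 801 and 816) and MSMO1 (966 and 921 to 645 and 637) had changes of -1.06 and -0.56. NF-kB and cytokine genes fell in 11 of 19 (57.9%) and rose in 0 (median -0.46), against 6 lower and 5 higher with centred arrays and 8 and 4 with quantile normalization, with the inhibitors NFKBIE (236 and 188 to 54.5 and 60.2) and NFKBIA (1699 and 1580 to 898 and 806) and the subunit RELA (392 and 336 to 197 and 158) in the lead as deposited.

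Interferon response genes moved in both directions, with 18.8% lower and 25% higher, against 41.7% and 6.64% of all genes. Of 16 tested 3 fell and 4 rose (1 or 2 without any 1 of both 50 nM arrays and replicate 1 of 250 nM), with a median of 0.06 that turned to -0.76 with scaling to lys, TagJ and TagO. IRF1 went from 91.0 and 83.3 to 50.6 and 40.8 (a change of -0.94 ± 0.13, limma adjusted p = 1.88e-05), while BST2, an antiviral surface protein, went from 672 and 767 to 995 and 929 (a change of 0.42 ± 0.08, adjusted p = 0.000283, turned to a fall by that scaling). IRF7 had the up and down shape, with 149 and 140.1 in DMSO, 202 and 199 at 50 nM and 148 and 156 at 250 nM (a change of -0.40 ± 0.08 at the step, adjusted p = 0.000385, which turned to 0.10 with quantile normalization).

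The largest gene family in the lists also had the lowest median change, though G2/M genes had a larger share lowered (91.2%). Of 381 ZNF-named zinc finger genes tested, out of 486 on the array, 307 fell (80.6%, against 41.7% of all genes) and 1 rose, and 207 fell at least 2-fold. Their median was -1.12, and it stayed below 0 with each of the scalings tried, between -0.76 and -1.93. ZNF146 went from 1726 and 1577 to 360.1 and 331 (a change of -2.26 ± 0.07, limma adjusted p = 1.14e-12) and ZNF703, which is amplified in some luminal breast cancers, from 588 and 584 to 144 and 141 (-2.04 ± 0.07, adjusted p = 3.32e-12), though its other probe set was not called. From DMSO to 50 nM 29 of the 381 fell and 5 rose, near the shares of all genes at that step (5.68% and 2.79%). Many of these genes share sequence, and probe sets assigned to several genes were not used.

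The highest medians belonged to genes of respiration and protein synthesis. Oxidative phosphorylation genes rose in 40 of 51 and fell in 0 (78.4% against 6.64% of all genes), with a median of 0.26 that turned to -0.56 with scaling to lys, TagJ and TagO. COX4I1 went from 6620 and 6542 to 8060 and 8343 (a change of 0.32 ± 0.04, limma adjusted p = 7.85e-06, with 1 of its 2 other probe sets called higher), COX7B from 3178 and 3076 to 4109 and 4001 (0.37 ± 0.05) and NDUFA1 from 5768 and 5736 to 7209 and 7343 (0.34 ± 0.05). Their 250 nM arrays lay above the DMSO and 50 nM arrays, and each turned to a fall with that scaling.

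Cytosolic ribosomal protein genes rose in 62 of 70 and fell in 1, with a median of 0.25 that turned to -0.56 with the same scaling, and quantile normalization left 13 raised and the fit without replicate 2 of 250 nM 40. As deposited, 88.6% of them rose and 1.43% fell, against 6.64% and 41.7% of all genes. RPL27 went from 11390 and 11020 to 13700 and 15060 (a change of 0.36 ± 0.05, limma adjusted p = 3.2e-05), and RPS14 and RPS4X rose by 0.32 and 0.31, all turned to falls by the scaling, and the other probe set of RPS4X was not called. Housekeeping genes rose in 11 of 17 and fell in 1, with a median of 0.20 that turned to -0.61, and 5 rose without replicate 1 of 50 nM and 6 without replicate 2 of 250 nM. The deposited shares of housekeeping genes were 64.7% higher and 5.88% lower, against the same 6.64% and 41.7%. B2M went from 4116 and 4033 to 5206 and 4965, whereas TBP, the TATA-binding protein, was the 1 that fell, from 172 and 151 to 66.6 and 51.4 (a change of -1.46 ± 0.18, limma adjusted p = 3.6e-06).

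Mitochondrial ribosomal protein genes fell about as often as all genes did, in 29 of 74 (39.2%, against 41.7%), and rose in 10 (13.5%, against 6.64%), with a median of -0.11 that turned to 0.24 with centred arrays and 0.02 with quantile normalization. MRPS30 went from 2436 and 2459 to 908 and 856 (a change of -1.47 ± 0.08, limma adjusted p = 5.08e-10), MRPL10 from 817 and 761 to 375 and 344 and MRPL46 from 716 and 692 to 363 and 338. Of the 27 proteasome subunit genes 1 was lower (3.7%, against 41.7% of all genes) and 7 were higher (25.9%, against 6.64%), with a median of 0.04. With quantile normalization 7 were lower and 1 higher. PSMC2 fell from 1664 and 1755 to 1278 and 1292, and neither of its 2 other probe sets was called.

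Some genes respond to the lower dose in the other lines, and these were followed in ZR-75-1. The contrasts that picked them hold no ZR-75-1 group. The estimate of spread, the probe set choice and the filter did draw on ZR-75-1 arrays, so the choice is not fully independent of them. From DMSO to 50 nM, 1844 genes fell in MDA-MB-468 (14.6%) and 956 in T47D (7.56%), and 649 fell in both. In ZR-75-1, 554 of the 649 fell from 50 to 250 nM (85.4%, against 41.7% of all genes) and 11 rose, with a median of -1.004. From DMSO to 50 nM, which shares the 50 nM arrays, 358 of the 649 fell in ZR-75-1 (against 5.68% of all genes) and 0 rose. The median of the step stayed below 0 with each scaling tried, between -0.65 and -1.82.

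The 6 most lowered of these genes in the other lines took different courses in ZR-75-1. CYP1A1, a target of the aryl hydrocarbon receptor, read 154 and 157 in DMSO, 47.9 and 52.8 at 50 nM and 22.5 and 31.03 at 250 nM. It had fallen at the low dose (a change of -1.63 ± 0.13, limma adjusted p = 3.37e-06). Its other probe set was not called, and at 250 nM neither array was above background, so the second step is at least 1.69-fold (adjusted p = 1.79e-05). KRCC1, which had 1 of 2 arrays above background at 250 nM, read 200.2 and 198, 55.4 and 55.3 and 33.9 and 30.2, a change of -1.85 ± 0.11 and then of -0.79 ± 0.11.

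In ZC3H4, PCF11 and MOCS3 the second step was the larger. ZC3H4, which restrains unproductive transcription, read 587 and 505 in DMSO, 222 and 264 at 50 nM and 31.5 and 35.6 at 250 nM, a change of -1.17 ± 0.12 and then of -2.85 ± 0.12 (limma adjusted p = 1.81e-11), with its other probe set not called. PCF11, a termination factor, read 229.5 and 215, 174 and 158 and 42.1 and 31.5, and was called at the second step (a change of -2.19 ± 0.14, adjusted p = 1.28e-09) but not at the first (adjusted p = 0.0747). MOCS3 read 453 and 414, 257 and 236 and 28.1 and 30.2, and with neither 250 nM array above background its step was at least 8.26-fold (adjusted p = 4.36e-11). NEDD9, a scaffold protein, read 129 and 106, 50.8 and 75.7 and 17 and 21.8, at least 2.08-fold lower at the step (adjusted p = 5.48e-06).

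**Figure D4:**
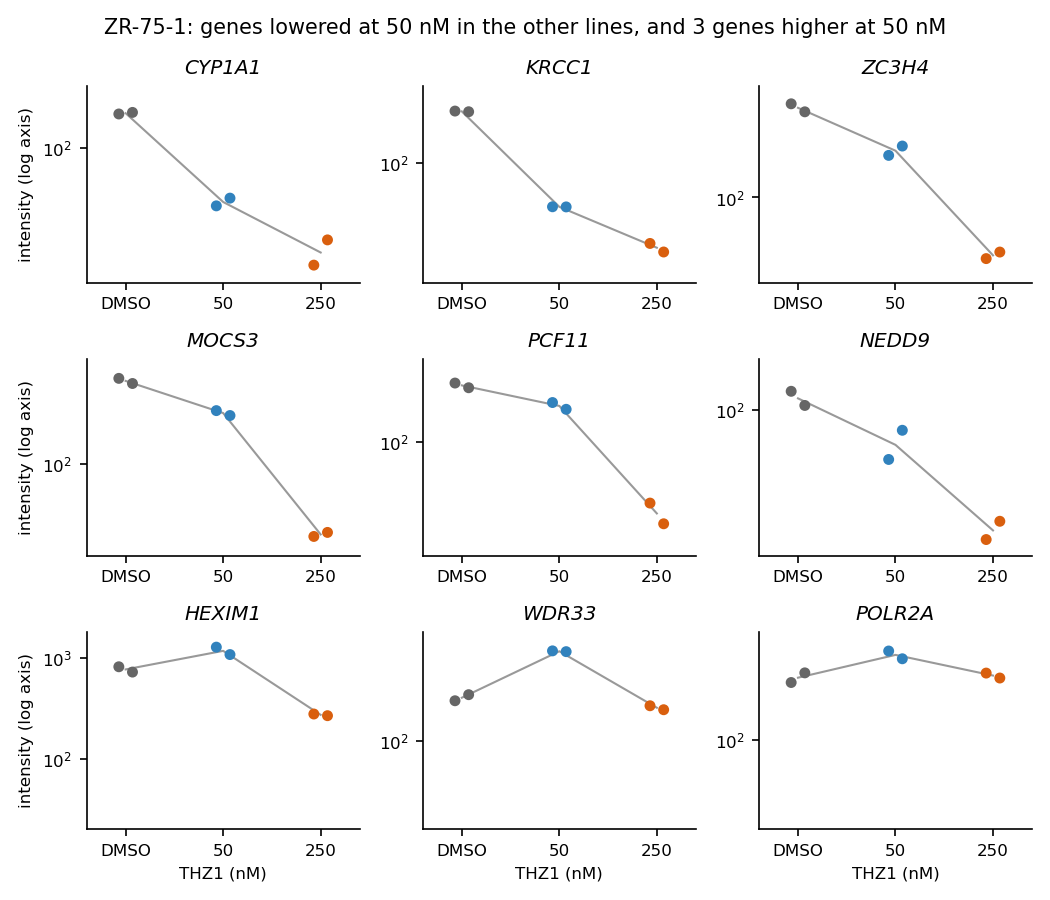
Intensity in ZR-75-1 (log y axis, 1 point per array) by THZ1 dose for the 6 genes most lowered at 50 nM in MDA-MB-468 and T47D and for HEXIM1, WDR33 and POLR2A, with lines through the geometric mean. At 250 nM neither array of CYP1A1, MOCS3 or NEDD9 is above background, so their second step is a lower bound, and the bottom row peaks at 50 nM.

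Aryl hydrocarbon receptor genes held 9 tested members, of which 6 fell (66.7%, against 41.7% of all genes) and 1 rose (median -0.93). CYP1B1 read 5423 and 5606 in DMSO, 1890 and 1742 at 50 nM and 842 and 836 at 250 nM, so both arrays of each dose lay under those of the dose before, with changes of -1.60 ± 0.06 (limma adjusted p = 2.05e-10) and -1.11 ± 0.06 (adjusted p = 1.35e-10). LMCD1 had the same course, with 636 and 535, 203 and 202 and 84.4 and 81.5, and 1 of its 3 other probe sets was called lower at the second step. TIPARP, a feedback repressor of the receptor, read 285 and 270.3 in DMSO and fell at the step, from 274 and 278 to 53.8 and 56.8 (-2.32 ± 0.08, adjusted p = 4.19e-12).

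The same dose step gave fewer lowered genes in the other lines with replicates, which the choice of the steepest step had fixed. In MDA-MB-468 2930 genes fell (23.2%) and 725 rose (5.73%), and 834 fell at least 2-fold (6.6%). In T47D 3439 fell (27.2%) and 580 rose (4.59%), and 748 fell at least 2-fold (5.92%). The median change was -0.01 in MDA-MB-468 and -0.05 in T47D, against -0.17 in ZR-75-1. In BT-549, with 1 array per dose and no test, 479 genes read at least 2-fold lower at 250 than at 50 nM and 17 at least 2-fold higher, where the untested count of genes at least 2-fold lower is 2049 in ZR-75-1, 836 in MDA-MB-468 and 749 in T47D.

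**Figure D5:**
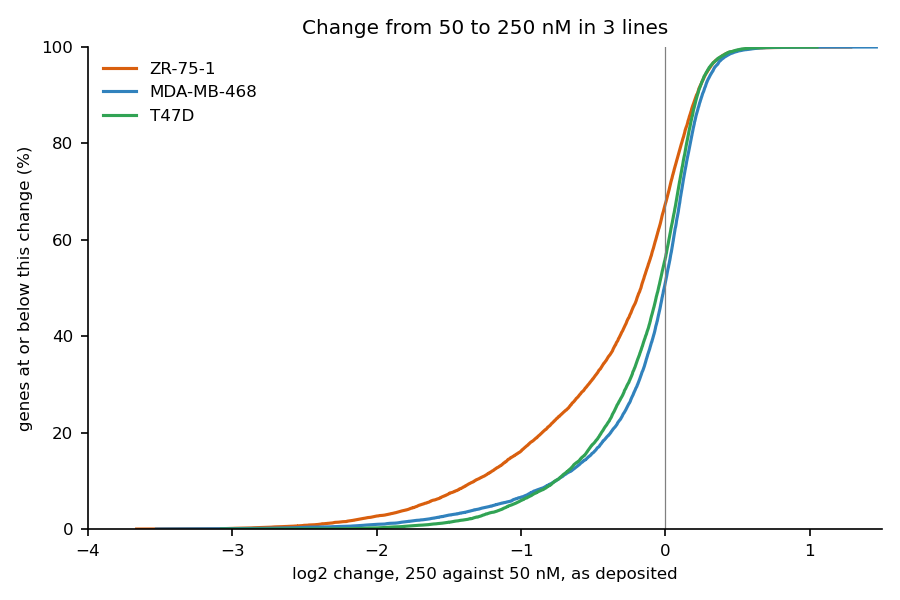
Percent of the 12644 genes tested (y axis) whose log2 change from 50 to 250 nM, as deposited, is at or below the value on the x axis, for ZR-75-1, MDA-MB-468 and T47D (2 arrays per dose in each). The ZR-75-1 curve lies left of the others through most of its range, with 2049 genes at or below -1 against 836 and 749.

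The difference between steps was tested gene by gene, as an interaction in the same limma fit, and the steps of different lines share no array. The step in ZR-75-1 was lower than in MDA-MB-468 for 3097 genes (24.5%) and higher for 251 (1.99%), counts that the same choice bears on. It was lower than in T47D for 2733 genes (21.6%) and higher for 177 (1.4%), or 111 without ZR-75-1 50 nM replicate 1 and 103 without T47D 50 nM replicate 1. Centring the arrays left 1501 and 1311 genes lower and raised those higher to 709 and 474. The lines also differ at 50 nM in which genes they still express, and a gene without signal in a line cannot fall there.

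Most genes with the largest differences had a low signal in the other line. EGR3, an immediate early transcription factor, fell in ZR-75-1 from 373 and 363 to 70.8 and 70.1. In MDA-MB-468 it read 23.2 ± 4.09 and 45.6 ± 4.24 (SD, n = 2), and in T47D 61.0 ± 13.8 and 63.4 ± 14.7. So it rose in MDA-MB-468 as deposited, by 0.98 ± 0.18 from a mean under background (limma adjusted p = 0.000509). In T47D it was low but above background and was not called (adjusted p = 0.851). The difference in steps was -3.37 ± 0.26 from MDA-MB-468 (limma adjusted p = 2.89e-07) and -2.44 ± 0.26 from T47D (adjusted p = 6.33e-06), but none of its 3 other probe sets was called in ZR-75-1. IL20, a cytokine, went from 477 and 446 to 67.8 and 75.6 in ZR-75-1 and read 18.9 ± 4.14 and 20.3 ± 4.62 in MDA-MB-468 and 20.5 ± 2.02 and 19.99 ± 3.27 in T47D, with differences of -2.79 ± 0.27 and -2.65 ± 0.27.

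Other genes with no more than a low signal in the compared line were GSC, a homeobox factor (254 and 252 to 50.5 and 55.0 in ZR-75-1, 12.2 ± 2.06 to 11.6 ± 0.0342 in MDA-MB-468), and ZNF114 (156 and 163 to 33.0 and 37.5, against 15.9 ± 0.487 and 19.5 ± 0.202). Against T47D they were BCL11B (143 and 145 to 31.8 and 26.8 in ZR-75-1, where 1 of 2 arrays stayed above background, 18.8 ± 4.33 to 22.7 ± 0.743 in T47D), LRATD1 (329 and 388 to 82.9 and 79.1, with its other probe set not called, against 22.7 ± 1.22 and 27.0 ± 4.87) and DKK1 (36.03 ± 5.69 to 25.4 ± 3.94 in T47D). The MDA-MB-468 means of IL20, GSC and ZNF114 and the T47D means of IL20, BCL11B and LRATD1 lay under background at both doses, so those lines could show no fall there. IFRD1, a transcriptional co-regulator, was the exception to the low signals among those named. It was high in MDA-MB-468 and was not called at the step, at 2171 ± 0.31 and 1875 ± 132, while in ZR-75-1 it went from 339 and 295 to 56.1 and 48.5, a difference of -2.39 ± 0.13 (limma adjusted p = 6.63e-08).

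In the opposite direction the named genes had signal in the other line and little in ZR-75-1. FOXQ1, a forkhead factor, fell in MDA-MB-468 from 908 ± 31.9 to 102 ± 8.98, and CCN2, ID4 and ALKAL2 had changes of -2.24, -1.94 and -1.57 there. None of these 4 was above background on a ZR-75-1 array at 50 nM. CCN1, a matricellular protein, could fall in both: from 1235 ± 2.34 to 107 ± 0.886 in MDA-MB-468 and from 95.2 and 80.9 to 33.1 and 29.6 in ZR-75-1, where 1 of 2 arrays at 250 nM was above background. Its step was smaller in ZR-75-1 by 2.04 ± 0.13 (limma adjusted p = 8.57e-08). The 5 named against T47D, which were CCDC85A, FAM200A, KCNJ2, YOD1 and ZFP37, were all under background in ZR-75-1 at 50 nM. The call of CCDC85A was lost without ZR-75-1 50 nM replicate 1 (limma adjusted p = 0.0724) and without 250 nM replicate 2 (limma adjusted p = 0.059).

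For genes that all lines express, the size of the step differed by gene. MYC fell more in MDA-MB-468, from 1141 ± 6.03 to 100.1 ± 9.65 (difference 1.39 ± 0.12, limma adjusted p = 8.04e-07), and its step in T47D, from 693 ± 31.7 to 166 ± 19.0, was not called different (difference -0.06 ± 0.12, adjusted p = 0.789). SOX9 also fell more in MDA-MB-468 (1081 ± 47.9 to 192 ± 6.69, difference 1.46 ± 0.11). CCND1 fell more in ZR-75-1 than in either line, with differences of -1.13 ± 0.08 from MDA-MB-468 (1208 ± 8.88 to 961 ± 51.3) and -1.05 ± 0.08 from T47D (949.7 ± 17.9 to 716 ± 11.7). CDK7 did as well, with differences of -0.55 ± 0.10 and -0.62 ± 0.10, though the first was not called with quantile normalization.

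The luminal regulators differed between the ER+ lines. GATA3 went from 5163 ± 150 to 3743 ± 24.2 in T47D, so its step was larger in ZR-75-1 (difference -1.10 ± 0.12, limma adjusted p = 1.04e-05). FOXA1 went from 4409 ± 78.3 to 1690 ± 118 in T47D (difference -0.82 ± 0.11, adjusted p = 7.86e-05). ESR1 read 788 ± 53.6 and 697 ± 65.0 in T47D (difference -0.70 ± 0.21, adjusted p = 0.0243), a call that was lost with centred arrays, quantile normalization and the mean over probe sets. It was also lost without replicate 1 of 50 nM (adjusted p = 0.129) or replicate 2 of 250 nM (0.129) of ZR-75-1, and without replicate 1 of 50 nM (0.0925) or replicate 2 of 250 nM (0.106) of T47D, by limma. MCL1 fell more in ZR-75-1 than in T47D (difference -0.66 ± 0.12, adjusted p = 0.00109), a call lost with quantile normalization, and was not called different from MDA-MB-468 (difference -0.08 ± 0.12, adjusted p = 0.716).

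Over all genes the interaction was one-sided, which the choice of step bears on. Against MDA-MB-468 24.5% were lower and 1.99% higher, and against T47D 21.6% and 1.4%. Many lists had that tilt and some did not. Mediator genes fell more in ZR-75-1 than in MDA-MB-468 in 15 of 27 and less in 1, and more than in T47D in 14 and less in 0. Homologous recombination and Fanconi genes fell more in 14 of 24 against MDA-MB-468 and in 8 against T47D. The ZNF-named genes fell more in 156 of 381 against MDA-MB-468 and in 145 against T47D, where the share of all genes was 24.5% and 21.6%. Immediate early genes went the other way against MDA-MB-468, with 9 of 23 lowered less in ZR-75-1 and 2 lowered more. Against T47D they had 4 lower and 3 higher. WNT, NOTCH and BMP genes had 4 lower and 4 higher against MDA-MB-468, and forkhead, SOX and KLF factors 4 and 3. Oxidative phosphorylation genes had 0 of 51 lower and 4 higher against MDA-MB-468, and 0 and 6 against T47D, where 1.99% and 1.4% of all genes were higher. Those calls are on the deposited scale. The lys, TagJ and TagO controls rose by 0.81 in ZR-75-1, against 0.38 in MDA-MB-468 and 0.35 in T47D.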

How the data were processed

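The deposited values are linear intensity, 1 per probe set and array, made with MAS5 per the submitters' processing notes. Its version and how arrays were scaled are not given in the sources used here. Per the labels' protocols, an ERCC mix was spiked in by cell number, and the same mass of total RNA from each sample was then amplified with an oligo(dT) primer and biotin-labelled. No probe set of the table is named for an ERCC transcript.

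Of 49395 probe sets 44994 have 1 gene in the platform annotation, 1832 have several and 2569 none. For each gene the probe set of highest mean over the 21 arrays was used. Intensities under 1 were set to 1, log2 was taken and arrays were not rescaled. Genes whose highest group mean was below the overall median (log2 5.84) were dropped, which left 12644 of 18132.

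The model, fitted with limma 3.58.1 (R 4.3.3), had a mean for each of 9 groups over 18 arrays (eBayes with a trend, residual df 9, prior df 6.18), with Benjamini-Hochberg adjustment over all genes within a contrast. An array is above background for a probe set where it exceeds the mean of 23 background probe sets, and where no array of a group does, a fold is given as a bound against that mean.

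The arrays, the 33 gene lists and the naming rule were chosen with earlier results of these data known. The rule takes the 10 most lowered and 6 most raised called genes whose doses do not overlap, 8 fixed genes (MYC, FOXA1, GATA3, ESR1, CCND1, MCL1, SOX9 and CDK7), at most 3 genes of each list (those with the largest moderated statistic), 5 genes per direction for each difference between lines, and the 6 genes most lowered at 50 nM in the other lines. List counts carry no set test. The code was tested on simulated data. Alternatives covered scaling, floor, filter, probe sets, arrays in the fit, trend, replicate block and leaving out each array. The number of arrays limits the precision.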

Additional observations from a re-analysis of the deposited data

Results flagged for a closer look

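These results were flagged because the lines differed by the limma interaction test. The ZR-75-1 step was lower than that of MDA-MB-468 for 3097 genes (24.5% of all genes tested) and higher for 251 (1.99%). It was lower than that of T47D for 2733 genes (21.6%) and higher for 177 (1.4%). The choice of the steepest step bears on these counts.

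Against MDA-MB-468 the log2 difference of steps was -3.37 for EGR3, -2.79 for IL20, -2.47 for ZNF114, -2.39 for IFRD1 and -2.19 for GSC. The means of IL20, ZNF114 and GSC in MDA-MB-468 lay under background at both doses and that of EGR3 at 50 nM, so no fall could be read there. EGR3 rose by 0.98 in MDA-MB-468 as deposited (limma adjusted p = 0.000509), and that rise is part of its difference. In the other direction it was 3.17 for FOXQ1, 2.48 for CCN2, 2.04 for ID4, 2.04 for CCN1 and 1.98 for ALKAL2, of which CCN1 alone was above background in ZR-75-1 at 50 nM. Among the fixed genes it was 1.46 for SOX9, 1.39 for MYC, -1.13 for CCND1, -1.12 for ESR1 and -0.55 for CDK7. The ESR1 mean in MDA-MB-468 lay under background at 50 nM, so no fall could be read there. None of the 4 other probe sets of ESR1 was called in ZR-75-1.

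Against T47D the difference was -2.65 for IL20, -2.63 for DKK1, -2.59 for BCL11B, -2.44 for EGR3 and -2.38 for LRATD1. In T47D the means of IL20, BCL11B and LRATD1 lay under background at both doses and that of DKK1 at 250 nM. In the other direction it was 1.98 for FAM200A, 1.62 for ZFP37, 1.52 for KCNJ2, 1.5 for CCDC85A and 1.43 for YOD1, none of them above background in ZR-75-1 at 50 nM. Among the fixed genes it was -1.10 for GATA3, -1.05 for CCND1, -0.82 for FOXA1, -0.70 for ESR1, -0.66 for MCL1 and -0.62 for CDK7.

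The control transcripts lys, TagJ and TagO, which enter the gene comparisons as 1 alternative scaling, rose by 0.81 on the log2 scale from 50 to 250 nM in ZR-75-1.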

How the results depend on the processing

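Scaling moved the counts most. With arrays centred on their median, 3377 genes were called lower (1201 by 2-fold or more) and 4774 higher (21), with 1501 lower and 709 higher in the difference from MDA-MB-468 and 1311 and 474 in that from T47D. Quantile normalization gave 3753 higher, 1236 and 25 at least 2-fold lower and higher, and 1776, 734, 1485 and 577 for the differences. Scaling to lys, TagJ and TagO called 12472 genes lower (6165 by 2-fold or more) and 1 higher (0), and 9181, 69, 9544 and 25 for the differences. Under the other settings every count stayed within 1.5 times, except when 1 array was left out. Without 1 of the ZR-75-1 arrays at 50 or 250 nM, genes lower ranged from 4778 to 5067 and genes higher from 620 to 682. Genes at least 2-fold lower then ranged from 1993 to 2182 and genes at least 2-fold higher from 5 to 11 against 3. Without 1 array of either compared line at those doses, the differences ranged from 2498 to 3038 lower and 180 to 253 higher from MDA-MB-468. From T47D they ranged from 2049 to 2686 lower and 103 to 190 higher, where 177 became 111 without ZR-75-1 50 nM replicate 1 and 103 without T47D 50 nM replicate 1.

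Single genes turned as follows. Centring gave 0.079 for POLR2H, and in the differences 0.079 for GATA3 and 0.13 for MCL1 from MDA-MB-468 and 0.14 for MYC from T47D. Quantile normalization gave 0.10 for IRF7, -0.0087 for EEF1A1, and 0.16 for MCL1 and 0.20 for MYC in those differences. Scaling to lys, TagJ and TagO gave -0.50 for COX4I1, -0.44 for COX7B, -0.47 for NDUFA1, -0.54 for PSMA7, -0.39 for BST2, -0.49 for B2M, -0.59 for EEF1A1, -0.45 for RPL27, -0.50 for RPS14, -0.50 for RPS4X, -0.11 for FOXA1 from MDA-MB-468 and -0.23 for SOX9 from T47D. The mean over probe sets gave 0.013 for BCL2L2 and -0.28 for FOXA1 from MDA-MB-468. With single arrays left out, MCL1 from MDA-MB-468 ranged from -0.247 to 0.0924 (the highest without MDA-MB-468 250 nM replicate 1), and MYC from T47D from -0.176 to 0.059 (the highest without T47D 250 nM replicate 2). Apart from what the scalings construct, the cause was not tested.

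Replicate numbers recur at each dose, but the labels do not say that they mark a shared culture. Deviations of same-numbered ZR-75-1 arrays correlated across genes at 0.169 for 50 and 250 nM, -0.22 for DMSO and 50 nM and 0.0295 for DMSO and 250 nM. With the replicate block, 5360 genes were lower and 906 higher. Signals near background limit how deep a drop can be read.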

Other observations

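Messages encoded in the mitochondrial genome, which a separate polymerase transcribes, were looked at after the other values had been seen and carry no test here. COX3 read 2535 and 1958 at 50 nM and 4739 and 3210 at 250 nM in ZR-75-1, a change of 0.81 on the log2 scale as deposited, against 0.25 in MDA-MB-468 and 0.23 in T47D. ND4 read 7592 and 9046, then 12270 and 11680, a change of 0.53, against 0.46 and 0.34. ND1 read 1489 and 1547, then 2134 and 2012, a change of 0.45, against 0.44 and 0.57. In each both 250 nM arrays lay above both 50 nM arrays, and these changes were no larger than the 0.81 of the lys, TagJ and TagO control transcripts on the same arrays.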
